A study of Mus musculus with 12 samples.

Results

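The genes described here are 40 genes of proximal T cell receptor and CD28 signalling, listed by name, with earlier results of these data known. They are 40 of the 35275 gene identifiers in the deposited count table. All 40 were matched by symbol through GENCODE M21, and all 40 passed the filter on low counts, which left 13821 genes tested. The libraries came from wild-type mouse Th17 cells, helper T cells that secrete interleukin-17 and that were differentiated here in culture. Naive CD4+ T cells were stimulated for 72 h with plate-bound anti-CD3 and anti-CD28 in the presence of TGF-B, IL-6 and antibodies to IL-4 and IFN-g. They were then harvested untreated, or after 4 h with dexamethasone (Dex, a synthetic glucocorticoid), with IL-1B (the cytokine interleukin-1 beta), or with Dex+IL-1B. Each of the 4 groups held 3 libraries, and a library is called by its group and its replicate number. The labels give no dose for either agent, no vehicle for the untreated cells and no strain. No time matching the 4 h of treatment is given for untreated cells. If these were harvested earlier, treatment and added culture time cannot be told apart in the comparisons with untreated. The labels do not say whether the 3 libraries of a group came from separate mice or cultures, so p-values measure the spread between these libraries, which may be technical. All 4 groups, the untreated one included, had received the antibodies that engage the T cell receptor and CD28, so no library shows these genes in resting cells.

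The T cell receptor has no enzyme of its own. Its CD3 and zeta chains are phosphorylated by the kinases LCK and FYN, and ZAP-70 then binds them and phosphorylates the scaffolds LAT and SLP-76. On these scaffolds phospholipase C gamma, Ras activators and VAV1 assemble. They start a calcium, calcineurin and NFAT arm, a Ras arm and a PKC-theta, BCL10 and MALT1 arm that reaches NF-kB. CD28 and ICOS add costimulation, and phosphatases, ubiquitin ligases and diacylglycerol kinases hold the signal down.

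Total counts ran from 16904106 to 30445734 per library, and raw counts of the 40 genes from 157 (Txk, Dex+IL-1B 1) to 40631 (Ptprc), so that counting error is small for them. IL-1B 2 and Dex+IL-1B 1 stood apart. In these 2 libraries Gm42418, Gm26917 and Lars2, genes that overlap ribosomal RNA repeats, summed to 14036 and 18550 CPM (counts scaled to a common library size with TMM factors), against 2328 to 5644 CPM in the rest. They are called the rRNA-high libraries below. The T helper cell markers Cd3e, Cd3g, Cd4 and Trac, of which all but Trac are among the 40, were present in every library. Together they held 1188 to 1247 CPM in untreated, 1056 to 1220 CPM in Dex, 929 to 1014 CPM in IL-1B and 885 to 919 CPM in Dex+IL-1B libraries. Of the Th17 markers, the cytokine genes Il17a and Il17f ran from 8.96 to 152 and from 43.7 to 533 CPM over the 12 libraries. Of the defining markers of other cells, Lyz2, Csf1r and Adgre1 (myeloid) had at most 4 reads in any library, Ncr1 and Klrb1c (NK) at most 5 and Tcrg-C4 (gamma-delta T) at most 5. Other markers on the same lists were counted at low levels, with up to 151 reads of Flt3, 85 of Cd68 and 84 of Itgam, and up to 198 of Cd8b1, 139 of Cd8a and 129 of Prf1. Of 5 gamma-delta markers 2 were in the table and 0 passed the filter on low counts. The 6 B cell markers, led by Ighm, held 110 to 175 CPM in untreated, 84.3 to 104 in Dex, 84.7 to 97.5 in IL-1B and 85.6 to 94.9 CPM in Dex+IL-1B libraries. In the same order of groups, the summed markers of the other lists were 7.89 to 11.8, 7.42 to 8.25, 7.14 to 8.90 and 6.39 to 8.01 CPM for 7 myeloid markers. For 7 CD8 and NK markers they were 10.4 to 13.5, 10.7 to 13.0, 12.1 to 15.7 and 14.8 to 15.5 CPM. The B cell sum was highest in untreated libraries. The CD8 and NK sum was higher in all Dex+IL-1B than in all untreated libraries, and Cd8a, Cd8b1 and Prf1 were called in that comparison. The mean of Cd8a was 3.54 CPM in untreated and 5.59 CPM in Dex+IL-1B libraries. The directions of Cd8b1 and Prf1 are not reported here, so the 3 calls are not to be read as a joint rise. The part of either sum in the results was not tested. In these bulk samples fewer cells of a type and less RNA per cell cannot be told apart.

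The most abundant member per exon length was Lck, the kinase that starts the cascade. In untreated libraries it stood at 204 ± 6.997 CPM per kilobase of exon (SD, n = 3), above 98.2% of the genes tested. Cd4, Lat, Cd3d, Cd28 and Dgka followed at 151 ± 4.25, 149 ± 3.66, 144 ± 1.75, 143 ± 12.5 and 139 ± 18.1 CPM per kilobase, and the samples of each overlapped those of the next. At the low end stood Nck1, an adaptor to the actin machinery, at 5.65 ± 0.288, the brake Ubash3a at 4.43 ± 0.439 and the Tec-family kinase Txk at 3.43 ± 0.503 CPM per kilobase. Lowest were the Ras activator Sos1 at 3.13 ± 0.384 and the calcineurin subunit Ppp3ca at 3.05 ± 0.481 CPM per kilobase, above 39.0% of genes tested. Of the 39 pairs of neighbours in this order, 30 had overlapping untreated samples. Lck lay clear of Cd4, and Bcl10 (13.4 ± 1.5) clear of Nck1. Exon length was taken over all annotated exons of a gene together, not over the transcripts in use. This order and the shares given below depend on that choice. By CPM alone Ptprc was highest, at a mean of 1290 CPM in untreated libraries, against 598 CPM for Lck. The value of Cd247, the zeta chain, at 13.8 ± 0.667 CPM per kilobase is uncertain. On the opposite strand Pou2f1 covers 56.4% of its exon length, and no strand setting of the counting is given in the sources used here. In the rest of the 11 members with another gene on their exons the overlap was at most 6.96%.

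**Figure D1:**
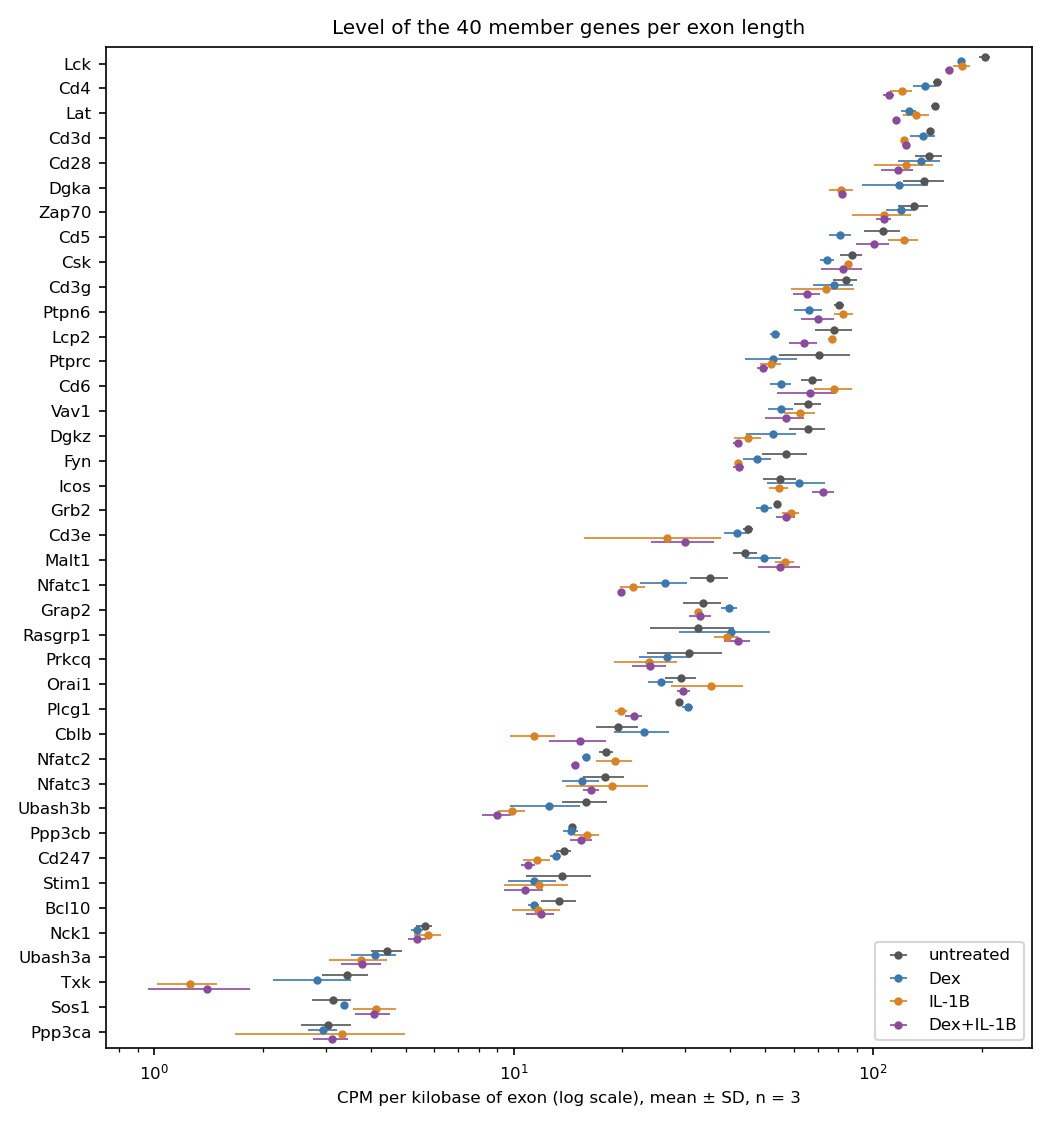
Level of each of the 40 genes in CPM per kilobase of exon (log axis), mean ± SD of 3 libraries per group, in order of the untreated mean. Lck leads at 204 and Ppp3ca closes at 3.05 in untreated libraries, and Txk stands apart in both groups with IL-1B.

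IL-1B alone lowered 12 of the 40 genes and raised 2, with 26 not called at an adjusted p under 0.05. Of all genes tested, 9.51% were called lower and 11.9% higher in the same comparison. The median log2 fold change was -0.19 over the 40 genes and -0.004 over all genes tested. Among the 12 that fell were the kinases Txk and Fyn, the brakes Cblb, Ubash3b, Dgka and Dgkz and the phosphatase Ptprc. The others were the coreceptor Cd4, the receptor chains Cd3d and Cd247, the phospholipase Plcg1 and the transcription factor Nfatc1. The 2 that rose were Sos1 and Malt1. Changes are log2 fold changes from edgeR's quasi-likelihood test ± SE, with Benjamini-Hochberg adjustment over all genes tested, and "called" means an adjusted p under 0.05. The number called ran from 8 (without untreated 2) to 15 with single libraries left out, and 9 were called without IL-1B 3. The falls of 8 genes (Cblb, Dgka, Dgkz, Fyn, Nfatc1, Plcg1, Txk and Ubash3b) kept their call under all 18 alternatives run for this comparison. Here and below, alternatives were followed gene by gene only for members called or with an unadjusted p under 0.05. The rest are given as not called by the main fit alone.

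The largest fall was that of Txk, a Tec-family kinase (ENSMUSG00000054892, chromosome 5, 72695978 to 72752777 on GRCm38, minus strand). Txk stood at 43.4, 36.7 and 32.5 CPM in untreated 1, 2 and 3, at 23.3, 38.6 and 31.1 CPM with Dex, at 10.8, 15.9 and 14.6 CPM with IL-1B and at 9.90, 17.05 and 19.1 CPM with both. All IL-1B libraries lay below all untreated ones and below all Dex ones. The log2 fold change with IL-1B was -1.45 ± 0.24 (adjusted p = 0.00167). Fyn, the Src-family kinase that works beside Lck, fell by less. In untreated libraries Fyn was at 289, 240.2 and 220.1 CPM, in Dex libraries at 195, 229 and 199, in IL-1B libraries at 185, 179 and 187 and in Dex+IL-1B libraries at 189.8, 185 and 177 CPM. Untreated 1 was the highest library, and the 3 IL-1B libraries were close together. The change of Fyn was -0.44 ± 0.10 (adjusted p = 0.00763). Lck was at -0.21 ± 0.07 (adjusted p = 0.0601) and Zap70 at -0.28 ± 0.12 (adjusted p = 0.127), neither called. Lck was called without number 2 of the IL-1B or 1 of the Dex+IL-1B libraries or with DESeq2 or without both rRNA-high libraries (adjusted p = 0.00939 to 0.0394, and 0.00939 to 0.146 across the alternatives). A call of Zap70 was made without number 2 of the IL-1B libraries or without both rRNA-high libraries (adjusted p = 0.0108 and 0.00532, with 0.00532 to 0.324 across the alternatives). The change of Zap70 was -0.43 without IL-1B 2 and -0.43 without both.

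Of the 8 phosphatases and brakes, 5 fell with IL-1B and 0 rose, with a median log2 fold change of -0.50. Dgka and Dgkz encode the diacylglycerol kinases that remove the lipid which activates RASGRP1 and PKC-theta. The values of Dgka were 741, 671 and 570.0 CPM in untreated libraries, 502, 694 and 484 CPM with Dex, 367, 421 and 376 CPM with IL-1B and 389, 388 and 395 CPM with both. The 3 untreated libraries held 457, 419 and 363 CPM of Dgkz, those with Dex 299.6, 390.1 and 299, those with IL-1B 266, 309 and 267 and those with both 271, 257 and 260.3 CPM. In both genes every IL-1B library lay below every untreated library, and Dex 2 stood near the untreated ones. The changes were -0.77 ± 0.13 (adjusted p = 0.00177) for Dgka (ENSMUSG00000025357, chromosome 10, 128720134 to 128744855 on GRCm38, minus strand) and -0.56 ± 0.12 (adjusted p = 0.00510) for Dgkz. Cblb encodes a ubiquitin ligase that raises the need for CD28 costimulation. Cblb reached 229, 210.0 and 176 CPM without treatment, 210.0, 288 and 225 CPM with Dex, 124, 100.1 and 134 CPM with IL-1B and 128, 185 and 167 CPM with Dex+IL-1B. All IL-1B libraries lay below all untreated ones and Dex 2 was highest, and the change with IL-1B was -0.78 ± 0.16 (adjusted p = 0.00480). Ubash3b, also called STS-1, encodes a phosphatase that acts on ZAP-70. For Ubash3b the CPM values were 134, 116 and 100.3 in untreated, 78.6, 115 and 81.5 in Dex, 65.7, 77.9 and 73.8 in IL-1B and 71.2, 66.8 and 59.2 in Dex+IL-1B libraries. Its IL-1B libraries did not overlap the untreated ones, and the change was -0.69 ± 0.14 (adjusted p = 0.00525). Its relative Ubash3a was at -0.24 ± 0.14 (adjusted p = 0.251), not called. Ptprc encodes CD45, the phosphatase that both opens and restrains LCK. Ptprc stood at 1608, 1227 and 1035 CPM in untreated 1, 2 and 3, at 864, 1151 and 880.1 CPM with Dex, at 921, 1021 and 908 CPM with IL-1B and at 937, 874 and 897 CPM with both. Untreated 1 was far above the rest of its group, and the change with IL-1B was -0.44 ± 0.15 (adjusted p = 0.0438). The Ptprc call was lost without number 1 or 2 of the untreated, 1, 2 or 3 of the IL-1B or 2 or 3 of the Dex+IL-1B libraries or without both rRNA-high libraries or in a fit of the groups compared (adjusted p = 0.0511 to 0.187, and 0.0111 to 0.187 across the alternatives). Without untreated 1 the change was -0.26. Csk and Ptpn6, the kinase and the phosphatase that restrain LCK and its targets, were at -0.03 ± 0.10 (adjusted p = 0.863) and 0.04 ± 0.10 (adjusted p = 0.805), not called.

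Among receptor chains and the coreceptor, 3 of 5 fell with IL-1B. Cd4 encodes the coreceptor that brings LCK to the receptor (ENSMUSG00000023274, chromosome 6, 124864692 to 124888221 on GRCm38, minus strand). In untreated libraries Cd4 was at 591, 625 and 606 CPM, in Dex libraries at 557, 603 and 523, in IL-1B libraries at 477, 521 and 454 and in Dex+IL-1B libraries at 443, 460.1 and 431 CPM. The untreated and IL-1B libraries did not overlap, and the change was -0.33 ± 0.08 (adjusted p = 0.0139). Cd4 was not called without number 2 of the untreated libraries (adjusted p = 0.0518, with 0.000505 to 0.0518 across the alternatives). Cd3d and Cd247 fell by small amounts, -0.25 ± 0.08 (adjusted p = 0.0338) and -0.25 ± 0.08 (adjusted p = 0.0471). The call of Cd3d ended without number 1, 2 or 3 of the untreated or 1 or 3 of the IL-1B libraries or with no filter on low counts or in a fit of the groups compared (adjusted p = 0.0552 to 0.0876, in a range of 0.00302 to 0.0876 across the alternatives). For Cd247 the threshold was missed without number 1, 2 or 3 of the untreated, 1, 2 or 3 of the Dex, 2 or 3 of the IL-1B or 2 or 3 of the Dex+IL-1B libraries or with no filter on low counts, with the replicate number as a block, without both rRNA-high libraries or in a fit of the groups compared (adjusted p = 0.0530 to 0.142, within 0.0226 to 0.142 across the alternatives). Cd3e had a larger value that was not called, -0.74 ± 0.26 (adjusted p = 0.0617). The values of Cd3e were 184, 187 and 176 CPM in untreated libraries, 155, 181 and 174 CPM with Dex, 135, 57.1 and 135 CPM with IL-1B and 94.5, 134 and 138 CPM with both. IL-1B 2 and Dex+IL-1B 1, the libraries high in genes overlapping ribosomal RNA repeats, were the lowest of their groups, and the other IL-1B libraries too lay below all untreated ones. Cd3e passed the threshold without number 1 or 2 of the IL-1B libraries or with DESeq2 or without both rRNA-high libraries (adjusted p = 0.00133 to 0.0489, within 0.00133 to 0.182 across the alternatives). The change was -0.43 without IL-1B 2 and -0.43 without both rRNA-high libraries. Cd3g was at -0.18 ± 0.13 (adjusted p = 0.362), not called. It was lowest in untreated 1 within its group and its highest library of all was IL-1B 2, at 297 CPM. IL-1B 1 and IL-1B 3 stood at 211 and 217 CPM, below all untreated libraries, which held 252 to 293 CPM.

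Of the genes downstream of the receptor, 1 of 8 adaptors and exchange factors, 2 of 4 genes of the phospholipase and NF-kB arm and 1 of 7 of the calcium and NFAT arm were called. Plcg1, the phospholipase that makes the second messengers of both the calcium and the Ras arm, fell with IL-1B (ENSMUSG00000016933, chromosome 2, 160731300 to 160775760 on GRCm38, plus strand). The 3 untreated libraries held 231, 227 and 221 CPM of Plcg1, those with Dex 238, 249 and 231, those with IL-1B 150.1, 156 and 162 and those with both 162, 179 and 167 CPM. The libraries of each group were close together and the 6 with IL-1B lay below the 6 without it. Its change was -0.54 ± 0.08 (adjusted p = 0.000638). Nfatc1, which encodes the inducible NFAT factor NFAT2, was the 1 member of 7 called in the calcium and NFAT arm (ENSMUSG00000033016, chromosome 18, 80606205 to 80713071 on GRCm38, minus strand). Nfatc1 reached 298, 251.1 and 238 CPM without treatment, 170.2, 228 and 193 CPM with Dex, 147, 161 and 172 CPM with IL-1B and 150.1, 148 and 147 CPM with Dex+IL-1B. Every Dex library was also below every untreated one, and the change with IL-1B was -0.71 ± 0.11 (adjusted p = 0.00114). Nfatc2 and Nfatc3, the related factors, were at 0.08 ± 0.09 (adjusted p = 0.541) and 0.07 ± 0.15 (adjusted p = 0.789), not called. Nor were the store-operated calcium sensor Stim1 (-0.21 ± 0.17), the channel Orai1 (0.27 ± 0.13) and the calcineurin catalytic subunits Ppp3ca (0.13 ± 0.25) and Ppp3cb (0.14 ± 0.08).

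The 2 rises lay in the Ras and NF-kB arms. Sos1 encodes an exchange factor that loads Ras with GTP. For Sos1 the CPM values were 37.8, 30.2 and 31.5 in untreated, 35.2, 36.4 and 35.8 in Dex, 38.7, 50.3 and 42.4 in IL-1B and 47.7, 43.8 and 37.9 in Dex+IL-1B libraries. The lowest IL-1B library was above the highest untreated one by a small margin, and the change was 0.40 ± 0.12 (adjusted p = 0.0299). The Sos1 call was lost without number 2 or 3 of the untreated or 2 or 3 of the IL-1B libraries or without both rRNA-high libraries or in a fit of the groups compared (adjusted p = 0.0557 to 0.150, and 0.0199 to 0.150 across the alternatives). Malt1 encodes the paracaspase of the complex that carries the signal to NF-kB. Malt1 stood at 737, 790.3 and 856 CPM in untreated 1, 2 and 3, at 923, 784 and 981 CPM with Dex, at 976, 1094 and 1005 CPM with IL-1B and at 851, 1115 and 1019 CPM with both. Every IL-1B library was above every untreated one, and the change was 0.37 ± 0.11 (adjusted p = 0.0330). Malt1 was not called without number 1 or 2 of the untreated, 1 of the Dex, 1, 2 or 3 of the IL-1B or 3 of the Dex+IL-1B libraries (adjusted p = 0.0553 to 0.132, with 0.0156 to 0.132 across the alternatives). Its partners Bcl10 (-0.20 ± 0.12) and Prkcq (-0.37 ± 0.18), the gene of PKC-theta, were not called. Neither were the adaptors Lat (-0.18 ± 0.08), Lcp2 (-0.02 ± 0.10), Vav1 (-0.07 ± 0.11), Grap2 (-0.05 ± 0.09), Grb2 (0.13 ± 0.08) and Nck1 (0.03 ± 0.09) or the Ras activator Rasgrp1 (0.27 ± 0.21). On the cell surface Cd28 (-0.21 ± 0.14), Icos (-0.01 ± 0.13), Cd5 (0.19 ± 0.11) and Cd6 (0.21 ± 0.13) were not called.

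**Figure D2:**
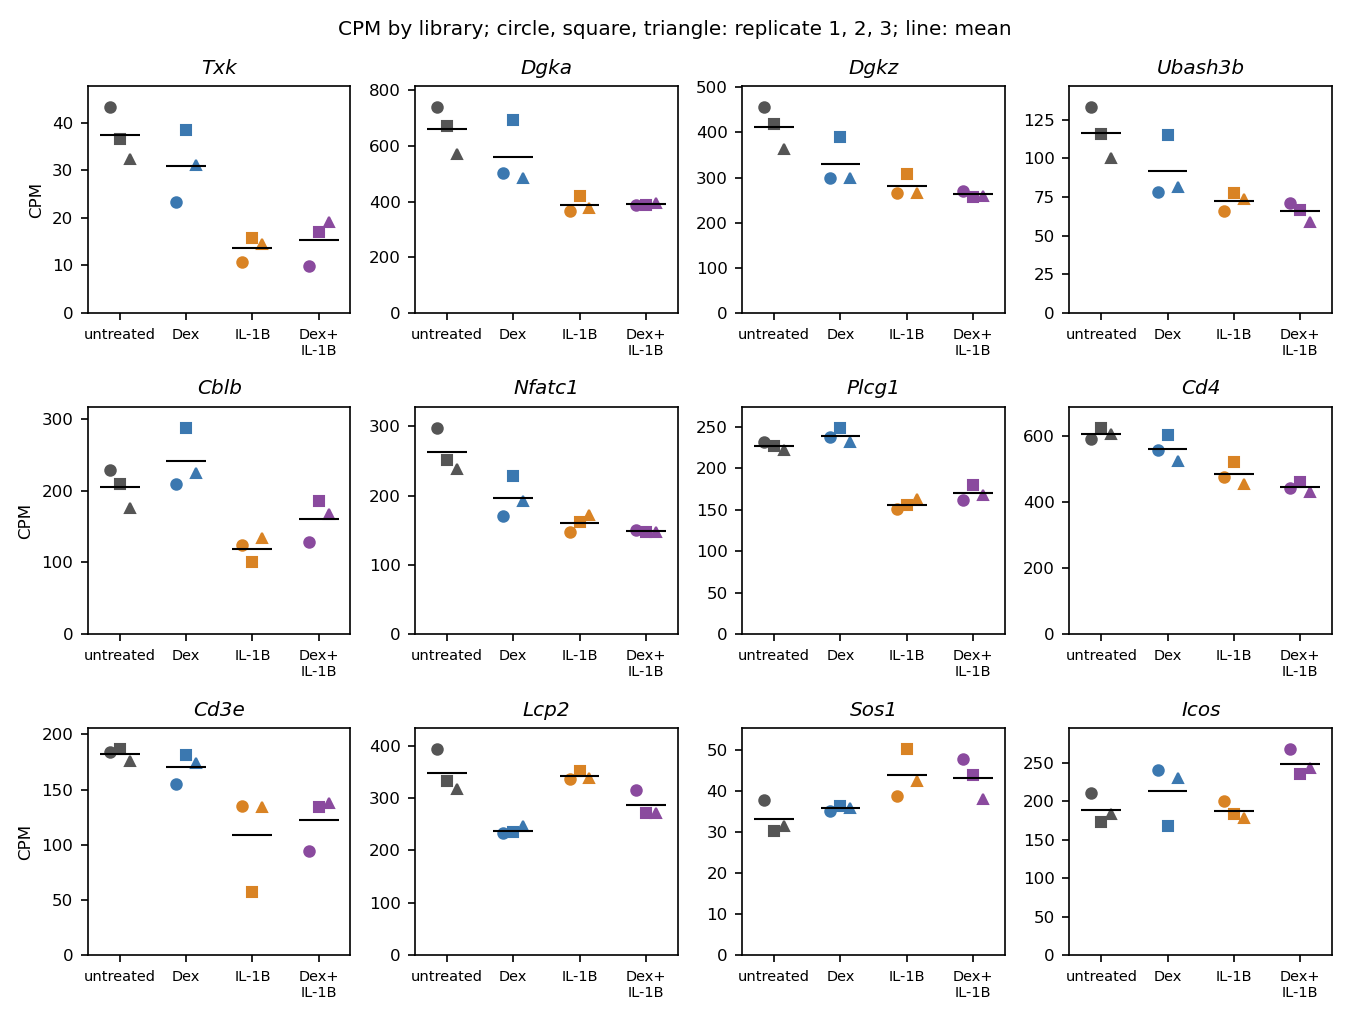
CPM of 12 of the genes in each library (vertical axes start at 0), by group, with the mean as a line. For Txk, Dgka, Dgkz, Ubash3b, Nfatc1, Plcg1 and Cd4 all IL-1B and Dex+IL-1B libraries lie below all untreated libraries, and for Sos1 they lie above them.

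With Dex and IL-1B together 13 of the 40 genes were lower than untreated and 2 higher, with 25 not called. The shares of all genes tested were 7.82% lower and 10.3% higher. The median was -0.28 over the 40 genes and 0.004 over all genes tested, and 32 of the 40 values were below 0. This comparison shares its untreated libraries with that of IL-1B alone, so the changes side by side are not independent. The larger falls were those of Txk (-1.28 ± 0.24, adjusted p = 0.00316), Ubash3b (-0.83 ± 0.15, adjusted p = 0.00205), Nfatc1 (-0.82 ± 0.11, adjusted p = 0.000416), Dgka (-0.76 ± 0.13, adjusted p = 0.00197) and Dgkz (-0.65 ± 0.12, adjusted p = 0.00234). Smaller ones were those of Cd4 (-0.45 ± 0.08, adjusted p = 0.00287), Fyn (-0.44 ± 0.10, adjusted p = 0.00897) and Plcg1 (-0.42 ± 0.08, adjusted p = 0.00230). Ptprc (-0.52 ± 0.15, adjusted p = 0.0245) and Cd247 (-0.33 ± 0.08, adjusted p = 0.0136) were called less firmly. The call of Ptprc ended without number 1 or 2 of the untreated or 1, 2 or 3 of the Dex+IL-1B libraries or without both rRNA-high libraries (adjusted p = 0.0507 to 0.103, in a range of 0.00533 to 0.103 across the alternatives). Without untreated 1 the change of Ptprc was -0.33. For Cd247 the threshold was missed without number 1 of the untreated libraries (adjusted p = 0.0536, within 0.00167 to 0.0536 across the alternatives).

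Called here but not with IL-1B alone, a difference that was not itself tested, were Lck, Lat, Nfatc2 and Icos. In untreated libraries Lck was at 619.6, 595 and 579 CPM, in Dex libraries at 508, 517 and 517, in IL-1B libraries at 506, 548 and 496 and in Dex+IL-1B libraries at 464, 487 and 479.6 CPM. Every Dex+IL-1B library was below every untreated one, and so was every Dex and every IL-1B library. The change of Lck was -0.33 ± 0.07 (adjusted p = 0.00877). Lat encodes the membrane scaffold that ZAP-70 phosphorylates. The values of Lat were 408, 403 and 423 CPM in untreated libraries, 337, 339 and 366 CPM with Dex, 371, 331 and 391 CPM with IL-1B and 321, 318 and 318 CPM with both. Its 3 Dex+IL-1B libraries were almost equal, and the change was -0.37 ± 0.08 (adjusted p = 0.00720). Nfatc2 encodes the NFAT factor already present in resting T cells. The 3 untreated libraries held 183, 190.3 and 200.0 CPM of Nfatc2, those with Dex 169.9, 163 and 169.8, those with IL-1B 183, 228 and 196 and those with both 159, 152 and 159 CPM. It was lowest in Dex+IL-1B libraries and highest in IL-1B 2, and the change was -0.29 ± 0.09 (adjusted p = 0.0345). The Nfatc2 call was lost without number 2 or 3 of the untreated or 1, 2 or 3 of the Dex+IL-1B libraries (adjusted p = 0.0567 to 0.0880, and 0.00692 to 0.0880 across the alternatives). Icos, a costimulatory receptor related to CD28, was higher. Icos reached 211, 173 and 183 CPM without treatment, 240.1, 167 and 231 CPM with Dex, 200.1, 183 and 178 CPM with IL-1B and 268, 235 and 243 CPM with Dex+IL-1B. The Dex+IL-1B libraries were above all untreated and all IL-1B ones and overlapped those with Dex, and the change was 0.40 ± 0.13 (adjusted p = 0.0430). Icos was not called without number 2 or 3 of the untreated, 1 or 3 of the Dex, 1 or 3 of the IL-1B or 1, 2 or 3 of the Dex+IL-1B libraries or with median-ratio scaling or without both rRNA-high libraries (adjusted p = 0.050 to 0.199, with 0.0127 to 0.199 across the alternatives). Sos1 was the other called rise, 0.38 ± 0.12 (adjusted p = 0.0433). The call of Sos1 ended without number 2 or 3 of the untreated, 1, 2 or 3 of the Dex, 3 of the IL-1B or 1 or 2 of the Dex+IL-1B libraries or with median-ratio scaling, with the replicate number as a block or in a fit of the groups compared (adjusted p = 0.0549 to 0.203, in a range of 0.0174 to 0.203 across the alternatives).

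Malt1 (0.33 ± 0.11, adjusted p = 0.0609) and Cblb (-0.35 ± 0.16, adjusted p = 0.144) were not called with both agents. The receptor chains Cd3d (-0.23 ± 0.08, adjusted p = 0.0529), Cd3e (-0.58 ± 0.26, adjusted p = 0.148) and Cd3g (-0.36 ± 0.13, adjusted p = 0.0784) were not called either, nor were Zap70 (-0.27 ± 0.12, adjusted p = 0.139) and Lcp2 (-0.28 ± 0.10, adjusted p = 0.0543). Without IL-1B 2, Malt1, Cd3d, Cd3e, Cd3g, Zap70 and Lcp2 each passed the threshold, with adjusted p from 0.00419 (Cd3e) to 0.0394 (Malt1), and without both rRNA-high libraries from 0.00173 (Cd3e) to 0.0360 (Cd3d). Cd3d also did so without Dex 2 or Dex 3 (adjusted p = 0.0308 and 0.0495), Lcp2 without untreated 3 (adjusted p = 0.0355) or Dex+IL-1B 1 (0.0315) and Malt1 without Dex+IL-1B 1 (adjusted p = 0.0215). DESeq2 called Cd3d (0.00574), Cd3g (0.0453), Lcp2 (0.0257) and Malt1 (0.0406), by adjusted p. A fit of the groups compared called Cd3d, Cd3e and Cd3g, median-ratio scaling Cd3d, and no filter on low counts Cd3g, with adjusted p from 0.0186 to 0.0447. Across the alternatives the adjusted p of these 6 genes ran from 0.00173 to 0.369.

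Against Dex alone, adding IL-1B lowered 7 of the 40 genes and raised 0, against 4.98% lower and 8.60% higher among all genes tested. The falls were those of Txk (-1.0027 ± 0.24, adjusted p = 0.0141), Cblb (-0.59 ± 0.16, adjusted p = 0.0270), Dgka (-0.52 ± 0.13, adjusted p = 0.0194), Plcg1 (-0.50 ± 0.08, adjusted p = 0.00111), Ubash3b (-0.48 ± 0.14, adjusted p = 0.0419), Nfatc1 (-0.41 ± 0.11, adjusted p = 0.0285) and Cd4 (-0.33 ± 0.08, adjusted p = 0.0174). Of these Plcg1 alone kept its call under all 18 alternatives. For Txk the threshold was missed without number 2 of the Dex libraries or with no filter on low counts (adjusted p = 0.0717 and 0.0585, within 0.000411 to 0.0717 across the alternatives). The Cblb call was lost without number 2 or 3 of the Dex or 1 or 3 of the Dex+IL-1B libraries or with no filter on low counts or without both rRNA-high libraries (adjusted p = 0.0526 to 0.140, and 0.00463 to 0.140 across the alternatives). Dgka was not called without number 2 of the Dex or 1 or 3 of the Dex+IL-1B libraries or without both rRNA-high libraries (adjusted p = 0.0559 to 0.0942, with 0.00282 to 0.0942 across the alternatives). The call of Ubash3b ended without number 2 of the untreated, 2 of the Dex, 3 of the IL-1B or 1, 2 or 3 of the Dex+IL-1B libraries or without both rRNA-high libraries or in a fit of the groups compared (adjusted p = 0.0545 to 0.200, in a range of 0.0179 to 0.200 across the alternatives). For Nfatc1 the threshold was missed without number 2 or 3 of the Dex or 1, 2 or 3 of the Dex+IL-1B libraries or without both rRNA-high libraries (adjusted p = 0.0589 to 0.144, within 0.00862 to 0.144 across the alternatives). The Cd4 call was lost without number 2 of the Dex or 3 of the Dex+IL-1B libraries (adjusted p = 0.0814 and 0.0681, and 0.000629 to 0.0814 across the alternatives). Dex 2, the library of its group nearest to the untreated ones for Txk, Dgka, Ubash3b and Nfatc1, was among the libraries whose removal ended each of these 6 calls, and 1 member was called without it. Without Dex 2 the change of Ubash3b was -0.285 and that of Dgka -0.33. The count was 3 without Dex+IL-1B 1 and 2 without Dex+IL-1B 3. Dgkz had -0.33 ± 0.12 (adjusted p = 0.0817), not called.

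**Figure D3:**
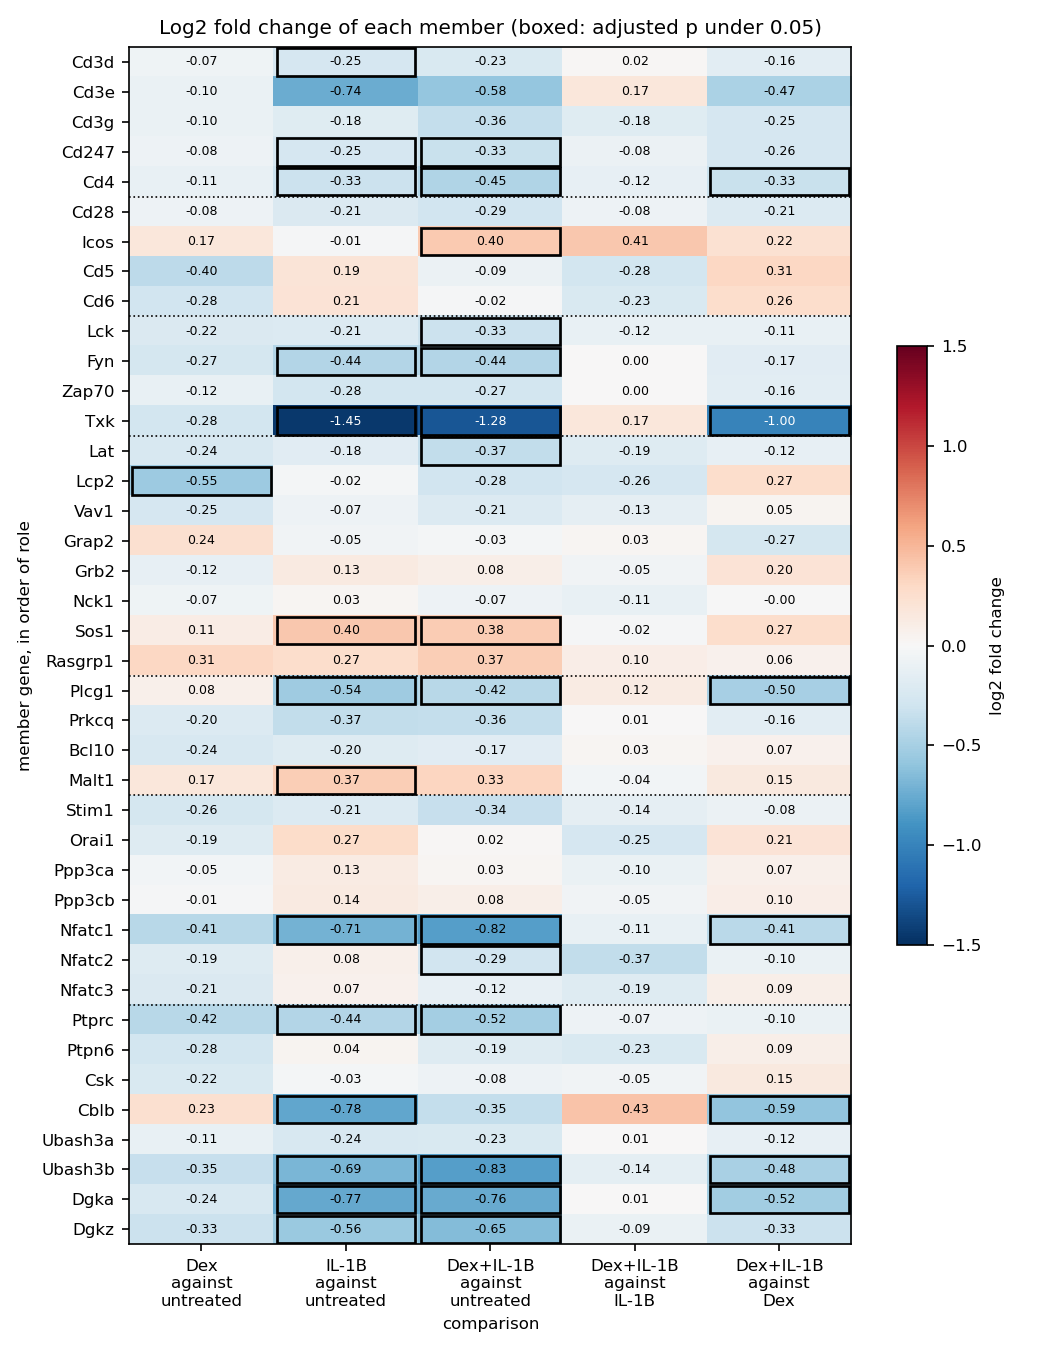
Log2 fold change of each of the 40 genes in 5 comparisons, with genes in order of role and dotted lines between roles. Boxes mark an adjusted p under 0.05. Of the 37 boxes, 36 lie in the 3 columns that set cells with IL-1B against cells without it. The column for Dex added to IL-1B holds 0. Of all genes tested, 2959, 2511 and 1876 were called in these 3 comparisons, against 74 for Dex alone and 38 for Dex added to IL-1B. The calls of all genes thus fall mostly in the same columns.

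Called lower in all 3 comparisons of cells with IL-1B against cells without it were 6 genes, Cd4, Txk, Plcg1, Nfatc1, Ubash3b and Dgka. Taken singly, these comparisons called 9.51%, 7.82% and 4.98% of all genes tested lower. They share libraries, and the share of all genes called lower in all 3 was not counted. Of the 6 genes, Plcg1 alone kept its call in all 3 under every alternative. The windows around a start site are shown for 4 of the 6 genes and for Sos1. Sos1 was called higher in both comparisons with untreated cells that hold IL-1B. Of the 40 genes, 33 have an entry in the RefSeq promoter table (GRCm38.p6), which gives 250 bases before and 50 after each start. The entry nearest the start of the GENCODE gene was taken. For Ubash3b, whose gene starts at 41161697 on the minus strand, the window begins at 41158312. It thus belongs to another start, inside the gene. For Dgka, whose gene starts at 128744855 on the minus strand, the window runs from 128745334 to 128745035. It too belongs to another start, and all of it lies before the gene. Counts per gene do not tell which start was used. Capitals mark matches, on either strand, to GGGA and CC with any 4 bases between them (NF-kB), and to the letters TGANTCA (AP-1), TGGAAA (NFAT), AGAACA (a half-site of the glucocorticoid receptor) and GTAAACA (forkhead factors).
Txk, chr5:72752728-72753027, minus strand: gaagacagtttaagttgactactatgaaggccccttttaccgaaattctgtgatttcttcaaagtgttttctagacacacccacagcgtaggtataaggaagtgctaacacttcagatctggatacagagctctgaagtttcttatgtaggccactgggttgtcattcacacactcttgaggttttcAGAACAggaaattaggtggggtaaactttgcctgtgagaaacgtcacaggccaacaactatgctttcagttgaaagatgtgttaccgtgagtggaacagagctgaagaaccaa
Plcg1, chr2:160731060-160731359, plus strand: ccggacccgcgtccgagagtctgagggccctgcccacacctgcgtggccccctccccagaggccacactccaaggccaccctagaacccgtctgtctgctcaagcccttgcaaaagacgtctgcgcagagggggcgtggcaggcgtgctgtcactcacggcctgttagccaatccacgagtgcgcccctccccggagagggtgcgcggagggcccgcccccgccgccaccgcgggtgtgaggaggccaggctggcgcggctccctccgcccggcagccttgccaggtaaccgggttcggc
Ubash3b, chr9:41158013-41158312, minus strand: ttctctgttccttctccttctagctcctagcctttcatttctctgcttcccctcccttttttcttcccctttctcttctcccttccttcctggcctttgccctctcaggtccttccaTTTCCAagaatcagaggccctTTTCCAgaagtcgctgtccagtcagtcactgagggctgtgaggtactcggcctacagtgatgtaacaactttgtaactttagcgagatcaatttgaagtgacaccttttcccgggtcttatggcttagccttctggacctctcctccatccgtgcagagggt
Dgka, chr10:128745035-128745334, minus strand: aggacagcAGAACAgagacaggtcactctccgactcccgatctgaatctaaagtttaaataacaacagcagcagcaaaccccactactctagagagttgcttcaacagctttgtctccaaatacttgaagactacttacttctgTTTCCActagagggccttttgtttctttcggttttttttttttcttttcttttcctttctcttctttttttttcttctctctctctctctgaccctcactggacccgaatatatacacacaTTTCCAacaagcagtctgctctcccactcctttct
Sos1, chr17:80480404-80480703, minus strand: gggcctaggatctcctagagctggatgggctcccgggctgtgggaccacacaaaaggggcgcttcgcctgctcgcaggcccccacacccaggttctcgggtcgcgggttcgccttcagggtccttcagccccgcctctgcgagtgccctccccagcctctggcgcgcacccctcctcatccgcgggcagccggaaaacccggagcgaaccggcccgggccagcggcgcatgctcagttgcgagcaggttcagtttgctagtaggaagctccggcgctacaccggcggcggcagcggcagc
The 2 matches in Ubash3b and 2 of the 3 in Dgka are to the NFAT letters, and the match in Txk and the first in Dgka are to the glucocorticoid receptor half-site. The windows of Plcg1 and Sos1 hold 0 matches. Of all 32851 windows given there, 21.4% hold the NFAT letters, 19% the half-site, 20.7% the NF-kB, 7.81% the AP-1 and 3.65% the forkhead letters. Of the 48 windows that the table holds for the 33 genes, 12, 10, 9, 0 and 3 hold them, in the same order. A match is a run of letters and not a measured site.

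Dex alone lowered 1 of the 40 genes, Lcp2, and raised 0, against 0.166% lower and 0.369% higher among all genes tested. DESeq2 called 4 of the 40, all lower, and 269 of all genes. Without Dex 2 or without both rRNA-high libraries edgeR called 4 of the 40, all lower. Without untreated 1, untreated 2, Dex 1 or Dex 3 the count was 0. Values below 0 were found for 33 of the 40 genes, against 50.1% of all genes tested. The median was -0.19 over the 40 genes and -0.0005 over all genes tested. With single libraries left out the median of the 40 ran from -0.232 (without Dex 2) to -0.125 (without untreated 1). An unadjusted p under 0.05 was reached by 15 of the 40 genes and by 1352 of all genes. Lcp2 encodes SLP-76, the adaptor that joins phospholipase C gamma and VAV1 to LAT (ENSMUSG00000002699, chromosome 11, 34046920 to 34092295 on GRCm38, plus strand). For Lcp2 the CPM values were 394, 331 and 318 in untreated, 233, 234 and 246 in Dex, 335, 352 and 338 in IL-1B and 315, 271 and 271 in Dex+IL-1B libraries. The 3 Dex libraries were close together and below all others, and untreated 1 was the highest. The change of Lcp2 was -0.55 ± 0.10 (adjusted p = 0.0193). Lcp2 was not called without number 1 or 2 of the untreated or 1 or 3 of the Dex libraries (adjusted p = 0.0701 to 0.132, with 2.63e-05 to 0.132 across the alternatives).

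The other values below 0 with Dex ranged down to that of Ptprc, -0.42 ± 0.14 (adjusted p = 0.306), not called. Nfatc1 (-0.41 ± 0.11, adjusted p = 0.157) and Cd5 (-0.40 ± 0.11, adjusted p = 0.168), a surface molecule that dampens receptor signalling, were not called by edgeR. Nfatc1 was called without number 2 of the Dex libraries or with DESeq2 (adjusted p = 0.0348 and 0.0312, and 0.0312 to 0.637 across the alternatives). A call of Cd5 was made with DESeq2 or without both rRNA-high libraries (adjusted p = 0.0342 and 0.0250, with 0.0250 to 0.613 across the alternatives). Cd5 stood at 585, 522 and 466 CPM in untreated 1, 2 and 3, at 377, 430.4 and 389 CPM with Dex, at 568, 663 and 564 CPM with IL-1B and at 554, 461 and 467 CPM with both. All Dex libraries of Cd5 lay below all untreated and all IL-1B ones. Lck was at -0.22 ± 0.07 (adjusted p = 0.294) and Lat at -0.24 ± 0.08 (adjusted p = 0.270). Lck passed the threshold with DESeq2 (adjusted p = 0.0373, within 0.0373 to 0.844 across the alternatives). Lat was called without both rRNA-high libraries (adjusted p = 0.0443, and 0.0443 to 0.772 across the alternatives). Dgkz (-0.33 ± 0.12, adjusted p = 0.334), Ubash3b (-0.35 ± 0.14, adjusted p = 0.434) and Cd6 (-0.28 ± 0.13, adjusted p = 0.484), a relative of CD5, were not called either. A call of Dgkz was made without number 2 of the Dex libraries (adjusted p = 0.0465, with 0.0465 to 0.947 across the alternatives). Ubash3b passed the threshold without number 2 of the Dex libraries (adjusted p = 0.0462, within 0.0462 to 1.00 across the alternatives). Without Dex 2 the change of Ubash3b with Dex was -0.55. Cd6 was called without both rRNA-high libraries (adjusted p = 0.0493, and 0.0493 to 1.00 across the alternatives). The positive values were those of Rasgrp1 (0.31 ± 0.21, adjusted p = 0.698), Grap2 (0.24 ± 0.09, adjusted p = 0.404), Cblb (0.23 ± 0.16, adjusted p = 0.70), Malt1 (0.17 ± 0.11, adjusted p = 0.685), Icos (0.17 ± 0.13, adjusted p = 0.735), Sos1 (0.11 ± 0.12, adjusted p = 0.847) and Plcg1 (0.08 ± 0.07, adjusted p = 0.820), none called. Dex 2 differed from Dex 1 and Dex 3 in many of these genes. It stood at 152 CPM for Rasgrp1 against 268 and 256, and at 694 CPM for Dgka against 502 and 484.

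Added to IL-1B, Dex changed 0 of the 40 genes by edgeR, where 0.275% of all genes tested were called in either direction. An unadjusted p under 0.05 was reached by 7 of the 40 and by 932 of all genes. DESeq2 called 1 of the 40, Nfatc2, and 95 of all genes. Nfatc2 had -0.37 ± 0.09 (adjusted p = 0.177), and its IL-1B and Dex+IL-1B libraries did not overlap. A call of Nfatc2 was made with DESeq2 (adjusted p = 0.0129, with 0.0129 to 0.622 across the alternatives). Cblb (0.43 ± 0.16, adjusted p = 0.634) and Icos (0.41 ± 0.13, adjusted p = 0.434) had the largest positive values. The 3 Dex+IL-1B libraries of Icos were above all IL-1B ones, while those of Cblb overlapped in Dex+IL-1B 1. Lcp2, the gene called with Dex alone, had -0.26 ± 0.10 (adjusted p = 0.624) here.

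Whether the Dex effect differed with IL-1B present was tested as an interaction. The term, the Dex effect with IL-1B minus that without it, called 0 of the 40 and 0 (0%) of all genes tested by edgeR, and DESeq2 called 0 of the 40 and 1 of all genes. An unadjusted p under 0.05 was reached by 1 of the 40 and by 427 of all genes. The 1 was Lcp2, at 0.29 ± 0.13 (adjusted p = 0.989). The values of the 40 ran from -0.22 (Malt1) to 0.45 (Txk), with 28 above 0 and a median of 0.10. With single libraries left out that median ran from 0.0401 (without untreated 1) to 0.150 (without IL-1B 2), and it was 0.0504 without Dex+IL-1B 1. All 40 values were uncalled, and the largest had an adjusted p of 0.989.

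Levels of related members were set against each other as shares. Per exon length, Nfatc1 made up 51.6%, 48.3% and 48.1% of the sum of Nfatc1, Nfatc2 and Nfatc3 in untreated libraries. Its share was 42.2%, 48.2% and 46.4% in Dex, 37.2%, 32.02% and 40.04% in IL-1B and 38.3%, 39.4% and 38.9% in Dex+IL-1B libraries. All libraries with IL-1B lay below all without it. Icos made up 27.8 ± 1.69% of the sum of Cd28 and Icos in untreated and 38.3 ± 1.53% in Dex+IL-1B libraries (SD, n = 3), with 31.6 ± 6.73% in Dex and 31.0 ± 4.00% in IL-1B libraries. Dgkz made up 32.2 ± 0.344% of the sum of Dgka and Dgkz in untreated and 35.5 ± 0.371% in IL-1B libraries. Ubash3a, the rarer of its pair, made up 21.9 ± 0.870% of the sum of Ubash3a and Ubash3b in untreated and 27.4 ± 2.30% in IL-1B libraries, with no overlap. Ppp3cb made up 82.7 ± 2.20% of the calcineurin pair in untreated and 83.4 ± 5.61% in IL-1B libraries, a difference within the spread. Lck made up 78.2 ± 1.83% of the sum of Lck and Fyn in untreated and 80.7 ± 1.16% in IL-1B libraries. These shares are levels per exon length and were not tested.

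**Figure D4:**
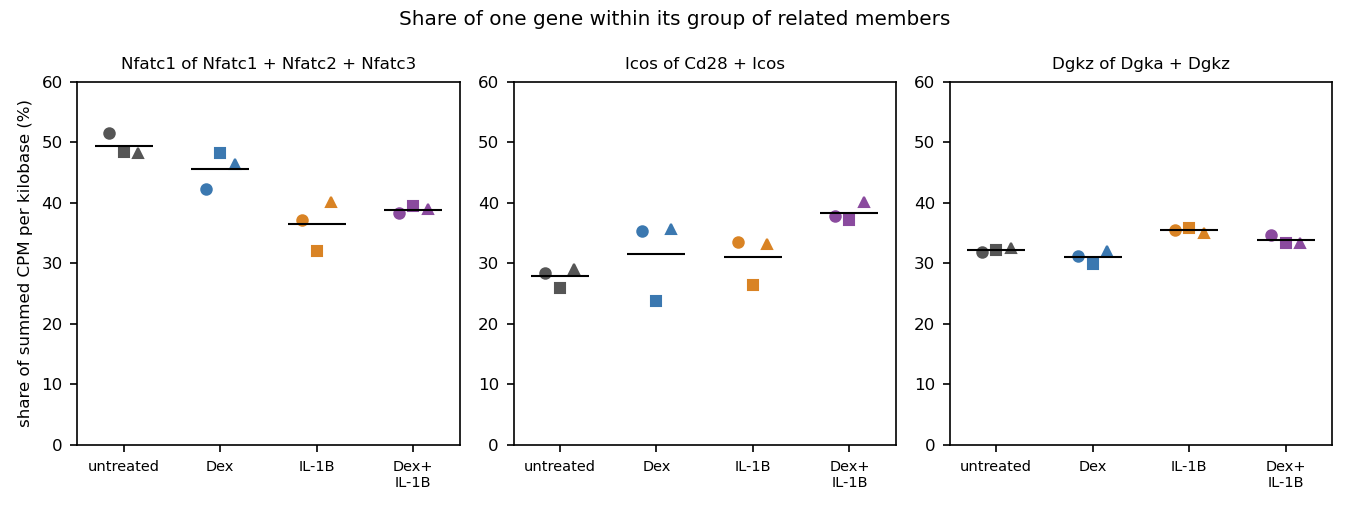
Share of Nfatc1, Icos and Dgkz in the summed CPM per kilobase of their related genes (percent, axis from 0) in each library, with the mean of 3 as a line. The Nfatc1 share lies at 48.1 to 51.6% in untreated and at 32.02 to 40.04% in IL-1B libraries.

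Beyond the 40 genes, 101 other genes of the same pathways were looked at. With IL-1B alone 14 rose and 21 fell, where 11.9% of all genes tested rose and 9.51% fell, and their median was -0.01. With both agents 14 rose and 21 fell, against 10.3% and 7.82% of all genes, and with Dex alone 3 rose and 0 fell, against 0.369% and 0.166%. The 3 were Gab2 (1.09 ± 0.22, adjusted p = 0.0427), an adaptor, Prkch (0.51 ± 0.09, adjusted p = 0.0172), a protein kinase C, and Ptpn22 (0.60 ± 0.10, adjusted p = 0.0172), a phosphatase that acts on LCK. Ptpn22 was the 1 of these genes called with Dex added to IL-1B, at 0.74 ± 0.10 (adjusted p = 0.00388), and it fell with IL-1B alone, with a log2 fold change of -0.95 ± 0.10 (adjusted p = 9.51e-05). Among 17 other negative regulators 4 rose and 5 fell with IL-1B. Cd200 rose (1.16 ± 0.11, adjusted p = 3.48e-05) and so did Btla (0.60 ± 0.13, adjusted p = 0.00533), while the inhibitory receptors Pdcd1 (-0.96 ± 0.17, adjusted p = 0.00245) and Lag3 (-0.56 ± 0.09, adjusted p = 0.00154) fell. Of 22 other adaptors 4 rose and 4 fell. Among them Cd2ap (0.49 ± 0.11, adjusted p = 0.00553) and Vav2 (0.43 ± 0.09, adjusted p = 0.00569) rose. Lax1 (-1.40 ± 0.27, adjusted p = 0.00400) and Sla (-0.68 ± 0.12, adjusted p = 0.00235) fell. Of 20 genes of the phosphoinositide and Ras arm 2 rose and 6 fell, with Hras (0.61 ± 0.13, adjusted p = 0.00539) higher and Mapk3 (-0.51 ± 0.13, adjusted p = 0.0157) lower. In the calcium arm 1 of 15 rose and 2 fell, among them the channel gene Orai2 (-0.78 ± 0.15, adjusted p = 0.00312), which fell. Of 10 receptor and surface genes 1 rose and 2 fell, Cd27 among them (-0.83 ± 0.17, adjusted p = 0.00481). These non-members were not tested for single libraries left out.

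Of 16 genes known to be induced by T cell receptor stimulation, 7 rose and 2 fell with IL-1B alone, against 11.9% and 9.51% of all genes tested, with a median of 0.24. Cd69, an early activation marker, rose (1.31 ± 0.08, adjusted p = 7.28e-07), as did the growth factor Il2 (3.56 ± 0.30, adjusted p = 3.11e-05) and its receptor chain Il2ra (0.67 ± 0.14, adjusted p = 0.00516). Egr2 (-0.69 ± 0.12, adjusted p = 0.00209) and Egr3 (-0.84 ± 0.14, adjusted p = 0.00133), early growth response factors, fell. With Dex alone Cd69 rose (0.40 ± 0.08, adjusted p = 0.0401) and Egr3 fell (-0.70 ± 0.14, adjusted p = 0.0350). Cd69 was the 1 gene of this list called with Dex added to IL-1B, at 0.69 ± 0.08 (adjusted p = 0.00125).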

How the data were processed

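The authors deposited raw counts per gene for 12 RNA-seq libraries of poly-A RNA from total RNA. The submitters' processing notes name STAR 2.7.0a, HTSeq 0.6.1 and GRCm38. Their settings and strand mode are not given in the sources used here. Gene symbols, positions and exon lengths came from GENCODE M21. Counts were scaled with TMM and filtered with filterByExpr by group. They were tested with edgeR 4.0.16 (limma 3.58.1, R 4.3.3) in quasi-likelihood fits of all 4 groups, with 6 contrasts and Benjamini-Hochberg adjustment over 13821 genes. The fit was tested on simulated data. Totals per library ran from 16904106 to 30445734, and genes left out held 0.0562% of counts. Alternatives were DESeq2 1.42.0, median-ratio scaling, no filter on low counts, a replicate block, fits of the groups compared, and libraries left out. The members, lists and tests were chosen with earlier results of these data known. Every member could be named. A gene of the other lists was named only if it was among the 3 called per direction with the smallest adjusted p, and not all of these were named. Some genes of these lists are not reported here.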

Additional observations from a re-analysis of the deposited data

How the results depend on the processing

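Of 37 calls of the 40 genes, 19 kept their side of the threshold under every alternative run, and 0 of the 77 pairs of gene and comparison looked at changed direction. These pairs were those called or with an unadjusted p under 0.05 in the main fit. The alternatives reuse most or all of the libraries, so a change of direction was unlikely from the start. For Dex against untreated 4 of the 40 genes were called by DESeq2 and 4 without both rRNA-high libraries, against 1 in the main result, and leaving out single libraries gave 0 to 4. Without both rRNA-high libraries 17 were called for IL-1B against untreated, 1 higher and 16 lower. The 17 include members that were not followed gene by gene and are given above only as not called. Leaving out single libraries gave 8 to 15 for IL-1B against untreated, 11 to 21 for Dex+IL-1B against untreated, 1 to 10 for Dex+IL-1B against Dex, 0 for Dex+IL-1B against IL-1B and 0 for the interaction. DESeq2 called 1 for Dex+IL-1B against IL-1B. The cause of these differences in count was not tested. Counts over all genes with libraries left out or with the replicate block are not reported here. The counts of the 40 under these settings, here and above, thus do not tell whether the calls of all genes moved alike. Of 40 uncalled pairs with an unadjusted p under 0.05, 21 were called under at least 1 alternative. Depth limits little here, since the lowest count of a member was 157, and 3 libraries a group limit the precision.

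With the replicate number as a block, 1, 13, 14, 0, 7 and 0 of the 40 genes were called for Dex, IL-1B and Dex+IL-1B against untreated, Dex+IL-1B against IL-1B, Dex+IL-1B against Dex and the interaction. The numbers were not taken to pair the libraries, since not every pair of the same number deviated together. The correlation of their deviations from the group means ran from -0.214 to 0.145 for number 1, -0.136 to 0.0964 for number 2 and 0.0113 to 0.184 for number 3, and 4 of 12 libraries correlated best with their own number.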
